A study of Mus musculus with 32 samples.

Results

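Symbols made of Gm and a number are the provisional names that mouse genome curators give to predicted genes with no assigned function. A Gm-numbered row counted here as abundant when its mean normalized count over all libraries was at least 200, with Gm11626, Gm17334, Gm20496, Gm28914 and Gm19412 left out by name. Of the 21880 rows of the deposited table, 5423 carried such a symbol and 174 met the rule. Apart from these names, members were chosen by their mean, so their levels are a description and were not tested. Of the 5 rows left out by name, Gm19412 (mean 362) and Gm20496 (mean 290) would have passed, and the other 3 lay below the minimum. The members just inside it were Gm37676, Gm17661 and Gm9828, with means of 204, 207 and 208, and the Gm rows just outside it were Gm47200, Gm26590 and Gm10432, with means of 197, 194 and 193.

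The table came from bulk liver RNA of 4 genotypes (WT, TKO, DKO and L-Dnm1l-KO), taken when the mice were 2M or 6M old, with 4 libraries in each of the 8 groups and 32 in total. Dnm1l encodes DRP1, which divides mitochondria, and Mfn1 and Mfn2 encode the mitofusins, which fuse their outer membranes. L-Dnm1l-KO mice lacked Dnm1l, DKO mice lacked both mitofusins and TKO mice lacked all of these genes. The floxed alleles were on a C57BL/6 and 129 background and were deleted by Cre under the albumin promoter. That promoter is active in hepatocytes, so other liver cells can keep the genes. The WT libraries carry the name of the Drp1 line and served as the control for every knockout of the same age, so comparisons at the same age share their WT libraries. No library was labelled as WT of the DKO or TKO lines. In their comparisons the loss of the genes and a difference between lines cannot be told apart. Nothing in the labels said whether the libraries of a group came from separate animals, so the P values below measure only the spread between these samples, which may be technical. The rows for Mfn1 (mean 4.64) and Mfn2 (mean 9.04) were lower in DKO at 6M, with log2 fold changes of -3.74 ± 0.98 and -1.59 ± 0.52 (SE), and that of Mfn2 was lower at 2M in DKO, at -3.43 ± 0.66, and in TKO, at -2.05 ± 0.53. In TKO at 6M Mfn1 stood at -2.27 ± 0.70 and Mfn2 at -1.16 ± 0.48, both without an adjusted P value. Mfn1 did not pass the test at 2M in TKO (-1.80 ± 0.94) or DKO (-1.17 ± 0.79). The row for Dnm1l (mean 8.70) did not pass it in L-Dnm1l-KO, at -0.42 ± 0.52 at 2M and -0.44 ± 0.47 at 6M, or in TKO, at 0.58 ± 0.48 and -0.37 ± 0.47, the last with no adjusted P value, and gave no check of those labels. Values of single libraries were not analysed here, so each change is given as the deposited log2 fold change against WT with its standard error. Hepatocyte markers were all present (8 of 8 with a mean of at least 10, Alb highest at 4958). A mean of at least 1 was reached by 6 of 8 macrophage, 4 of 6 stellate and 4 of 5 endothelial markers. Of the cholangiocyte, B and T cell and neutrophil lists, 4 of 4, 2 of 4 and 1 of 4 markers had a row, and none reached a mean of 1. With the strand setting of the counting step unknown, as described below, these rows do not show that a cell type was absent.

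Many Gm rows are annotated as antisense RNAs, that is, transcripts read from the strand opposite a coding gene. Such RNAs can share exon sequence with that gene in reverse complement, and only a library that keeps the strand of each RNA, counted with the matching setting, can separate the pair. The libraries here kept the strand, but the strand setting of the counting step is not given in the sources used here, so reads of a member and of the gene opposite to it cannot be told apart. Because the liver secretes most plasma proteins and carries out much of the metabolism of amino acids, lipids and xenobiotics, the genes opposite the members, called partners below, are described by these roles.

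Of the 174 members, 168 (96.6%) shared exon bases with a protein-coding gene read from the other strand in GENCODE M21 (GRCm38), against 26.1% of the 5210 annotated Gm rows with lower means, 22% of all annotated rows and 82.6% of the 414 other rows with a mean of at least 200. The annotation calls 116 of them antisense, 24 TEC (a provisional class of transcript still to be tested experimentally), 10 lincRNA, 9 processed transcripts and 5 protein coding. The 168 members had 166 different partners, since Gm10680 and Gm47528 both lay opposite Apoa4, and Gm8373 and Gm50244 both lay opposite Glo1. The overlap ranged from 1 to 2822 bases with a median of 456.5, took in all exon bases of 29 members and reached coding bases of the partner in 133. For 23 members more than 1 coding gene lay opposite, and the gene with the longest overlap was taken as the partner. The shortest overlap, 1 base, was that of Gm45724 with Ces3a.

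The following stretches show what a shared exon looks like in 6 members, chosen because 3 of them (Gm30505, Gm16559 and Gm30097) are among the 10 highest and the other 3 changed past a log2 fold change of 1. Each is read from the GENCODE M21 transcript of the member, 5′ to 3′ on the member's strand, and capitals mark the bases that lie opposite a coding exon of the partner.
Gm30505: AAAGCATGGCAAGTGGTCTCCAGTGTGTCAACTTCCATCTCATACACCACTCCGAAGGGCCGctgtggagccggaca
Gm16559: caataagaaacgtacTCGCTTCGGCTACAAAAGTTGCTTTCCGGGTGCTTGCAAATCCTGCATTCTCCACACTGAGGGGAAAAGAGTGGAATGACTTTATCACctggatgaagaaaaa
Gm30097: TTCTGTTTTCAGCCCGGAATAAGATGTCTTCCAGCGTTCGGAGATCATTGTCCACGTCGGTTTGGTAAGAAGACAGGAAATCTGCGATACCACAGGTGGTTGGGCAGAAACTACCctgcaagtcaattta
Gm47528: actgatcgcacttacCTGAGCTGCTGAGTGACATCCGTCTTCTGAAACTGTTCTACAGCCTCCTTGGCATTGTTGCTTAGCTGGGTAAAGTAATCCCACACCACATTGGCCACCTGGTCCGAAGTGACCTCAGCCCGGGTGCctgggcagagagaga
Gm15690: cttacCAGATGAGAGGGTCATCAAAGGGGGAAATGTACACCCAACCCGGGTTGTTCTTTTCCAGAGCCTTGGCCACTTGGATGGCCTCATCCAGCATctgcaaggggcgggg
Gm11697: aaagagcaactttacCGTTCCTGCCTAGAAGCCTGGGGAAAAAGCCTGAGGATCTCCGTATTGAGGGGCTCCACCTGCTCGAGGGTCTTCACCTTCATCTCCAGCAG
The reverse complement of every capital stretch was found without mismatch in a transcript of the partner. Gm30505 (chr16:22894310-22894386, minus strand) covers 62 bases of exon 2 of Ahsg, and those 62 bases are the whole of its exon overlap. Gm16559 (chr3:138282421-138282538, minus strand) covers 88 bases of exon 4 of Adh1, and Gm30097 (chr3:83008359-83008488, minus strand) covers 115 bases of exon 3 of Fgg. Gm47528 (chr9:46241453-46241609, minus strand) covers the 127 coding bases of exon 2 of Apoa4, and Gm10680 covers 520 coding bases of exon 3 of that gene. Gm15690 (chr5:120480792-120480903, minus strand) covers 92 bases of exon 6 of Sds, and Gm11697 (chr11:109936327-109936433, plus strand) covers 92 bases of exon 36 of Abca8b. Where lower-case bases adjoin the capitals they read ac before them and ct after them, which are the reverse complements of the GT and AG that begin and end most introns, so these annotated members run on across the splice sites of their partners.

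The members held 29.8% of the summed mean normalized counts of the whole table, and the 10 highest members alone held 14.5%. Of the 50 rows with the highest means, 23 were members. Means ran from 204 to 20079 with a median of 448. The highest was Gm30505 (20079), opposite Ahsg, the gene of the plasma glycoprotein fetuin-A. It was followed by Gm10069 (18494), opposite the protease inhibitor gene Pzp, and Gm47544 (17962), opposite the apolipoprotein gene Apoa5. The next were Gm10252 (14480), opposite the ferritin light chain gene Ftl1, Gm16559 (12712), opposite the alcohol dehydrogenase gene Adh1, and Gm20528 (12235), opposite Ugt1a1, which encodes the enzyme that conjugates bilirubin. Gm20721 (9579) lay opposite Gnas, the gene of the stimulatory G protein alpha subunit, Gm30097 (9162) opposite the fibrinogen gamma chain gene Fgg, Gm15883 (7813) opposite the cytochrome P450 gene Cyp2f2 and Gm48702 (7667) opposite Ttc36.

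All 168 partners had a row of their own, and per kilobase of exon every one of them was lower than its member. The ratio of member to partner per kilobase had a median of 192 and ranged from 1.89 for Gm48529 and Tagln to 6208 for Gm11574 and Osbpl7. For Gm30505 the level was 11350 per kilobase against 370.3 for Ahsg, a ratio of 30.7. For Gm47544 it was 34279 per kilobase against 52.2 for Apoa5, and for Gm20528 it was 11521 per kilobase against 5.70 for Ugt1a1. The median mean of the partners was 12.5, 67 of the 168 lay under 10, and in 3 pairs the partner itself reached 200 (Ahsg at 813, Pzp at 550 and Fgg at 393). Since members were chosen for a high mean and partners were not, the side on which the pairs fall is a description. Whether reads made from the partner's RNA entered the member's count was not tested.

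**Figure D1:**
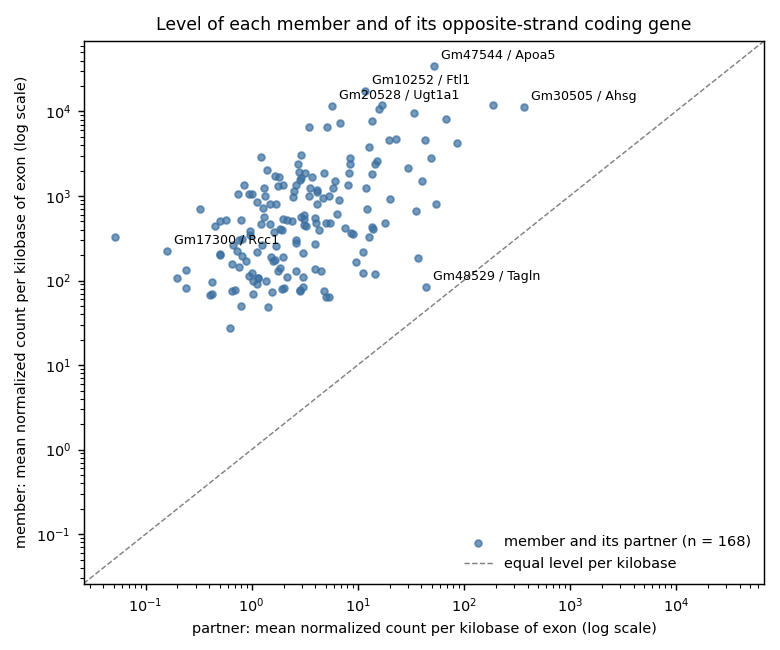
Mean normalized count per kilobase of exon of each member (vertical axis, log scale) against that of its opposite-strand coding gene (horizontal axis, log scale), 1 point per pair for 168 pairs. Every point lies above the dashed line of equal level, with a median ratio of 192, and Gm48529 with Tagln lies closest to it at 1.89.

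The 6 members without an opposite-strand coding partner were Gm47162 (mean 6699), opposite the pseudogene Scp2-ps2, Gm37376 (3866), opposite the noncoding Malat1, Gm10874 (535), opposite the pseudogene Got2-ps1, Gm38102 (275), Gm17661 (207) and Gm50469 (241), which was not found in the annotation. Malat1 encodes an abundant nuclear noncoding RNA, and its own row had a mean of 99.1. Gm37376 rose in L-Dnm1l-KO at 6M by 0.65 ± 0.20 and in DKO at 6M by 0.55 ± 0.20 (adjusted P = 0.0426 and 0.0476, the deposited Wald test). Both calls were lost when every gene with a P value entered the adjustment, a setting named the wider adjustment in what follows, and on the class-centred scale (0.61 and 0.25), on which 0 is the median of rows with an opposite-strand coding gene and a mean of at least 10. That in DKO was also lost with centring on all rows of mean 10 or more (0.47). The Malat1 row fell in DKO at 6M by 1.08 ± 0.31 (SE).

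Comparisons with WT asked which rows differed between each knockout and the WT of the Drp1 line. A row counts as called at an adjusted P under 0.05 in the deposited DESeq2 fit, and all 174 members had an adjusted P in all 6 comparisons. In L-Dnm1l-KO at 2M, 15 members were higher and 6 lower than in WT, where 3.06% and 3.22% of all tested rows were called in these directions. In TKO at 2M, 1 member was higher and 0 lower (background 0.0995% and 0.199%), and at an unadjusted P under 0.05 these counts were 4 and 13, against 7 and 28 of the 414 other rows that reached a mean of 200. In DKO at 2M, 26 members were higher and 21 lower (background 4.14% and 4.94%). In L-Dnm1l-KO at 6M, 11 were higher and 8 lower (background 1.91% and 1.56%), and in TKO at 6M, 1 was higher and 4 lower (background 0.201% and 0.535%). In DKO at 6M, 59 were higher and 1 lower, against a background of 5.70% and 9.42%.

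The background takes in rows with few reads, in which small changes cannot be called, so the 414 other rows with a mean of at least 200 give a closer reading. In L-Dnm1l-KO at 2M these other rows gave 5.8% higher and 8.94% lower, and the members 8.62% and 3.45%. In TKO at 2M they gave 0.0% and 0.725%, and the members 0.575% and 0.0%. In DKO at 2M the other rows gave 6.76% higher and 15.5% lower, and the members 14.9% and 12.1%. In L-Dnm1l-KO at 6M they gave 3.86% higher and 1.93% lower, and the members 6.32% and 4.6%, and in TKO at 6M they gave 0.483% and 0.725%, and the members 0.575% and 2.3%. In DKO at 6M the other rows gave 33.8% higher and 13% lower, and the members 33.9% and 0.575%. Thus the share of higher calls in DKO at 6M was near that of other abundant rows, and the share of lower calls was smaller, whereas at 6M in L-Dnm1l-KO and TKO the share of lower calls was larger in the members, on 8 and 4 calls. Under the wider adjustment the lower calls there were 4 and 0, and all calls together 10 and 1. These shares were not tested against each other.

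The median log2 fold change of the members was 0.09, -0.03 and 0.05 in L-Dnm1l-KO, TKO and DKO at 2M, and 0.08, -0.01 and 0.34 at 6M, where that of all rows was 0.00 in every comparison but DKO at 6M, at -0.09. In DKO at 6M 153 of the 174 members lay above 0, as did 323 of the 414 other rows with a mean of at least 200, whose median was 0.31. The direction of the DKO calls depends on the scale: centred on the median of the 4423 rows with a mean of at least 10, which lay at 0.08, 35 members were higher and 2 lower. On the class-centred scale, whose median lay at 0.30, 13 were higher and 11 lower. The same centring turned the balance of DKO at 2M from 26 higher and 21 lower to 17 and 31, that of L-Dnm1l-KO at 2M to 9 and 10, and that of L-Dnm1l-KO at 6M to 8 and 12. In TKO at 6M it gave 2 higher and 3 lower, and centring on the rows of mean 10 or more 2 and 4. Hepatocyte markers fell in the same libraries, with 7 of 8 lower in DKO at 6M (median log2 fold change -1.29), 4 of 8 lower in DKO at 2M (-1.09) and 4 of 8 lower in L-Dnm1l-KO at 2M (-1.16), and their part in the members' changes was not tested. The markers are coding rows like the partners, and with the strand setting unknown it is not settled that these rows measure the RNA of the marker genes themselves. In bulk tissue fewer cells of a type and less RNA per cell cannot be told apart.

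With a log2 fold change past 1 as well, 5 members were called in L-Dnm1l-KO, 0 in TKO and 9 in DKO at 2M, and 3, 3 and 8 at 6M. The shares of all tested rows that met both conditions were 4.17%, 0.242% and 5.86% at 2M and 2.12%, 0.557% and 10.2% at 6M. In all, 21 members met both conditions somewhere, 6 of them in more than 1 comparison. Of the 174 members, 101 were called in at least 1 comparison and 73 in none, a share of 58%, where 63% of the 414 other rows with a mean of at least 200 were called at least once. Only Gm10252 and Gm11175 were called in 4, as were 6 of those other rows. Both calls of Gm10252 in L-Dnm1l-KO were lost under the wider adjustment and on the class-centred scale (0.23 and 0.35), and that of Gm11175 in L-Dnm1l-KO at 2M on the class-centred scale (0.52).

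**Figure D2:**
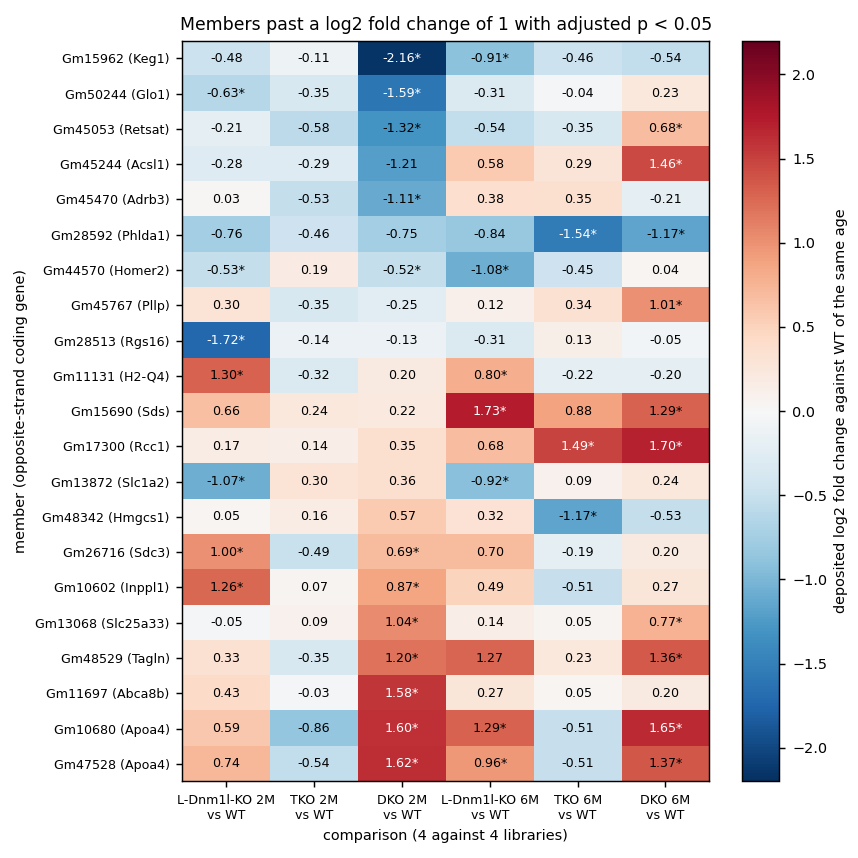
Deposited log2 fold change against WT of the same age (color and number) of the 21 members called with a log2 fold change past 1 in at least 1 comparison, with the partner in brackets. Asterisks mark an adjusted P under 0.05, and the columns are the 6 comparisons. The members opposite Apoa4 are above 0.9 in DKO at both ages and in L-Dnm1l-KO at 6M and below -0.5 in TKO.

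The members were next grouped by the role of the partner. Each count of calls in a role stands against the share of other rows with a mean of at least 200, named other abundant rows, that were called in the same direction, and no such difference was tested. Members opposite genes of plasma proteins and apolipoproteins numbered 12. In DKO at 2M 3 rose and 3 fell, in L-Dnm1l-KO at 6M 2 rose and 3 fell, and in DKO at 6M 3 rose. Of the other abundant rows 6.76% rose and 15.5% fell in DKO at 2M, 3.86% and 1.93% in L-Dnm1l-KO at 6M, and 33.8% rose in DKO at 6M. The 2 members opposite Apoa4, which encodes an apolipoprotein of triglyceride-rich particles, moved together. Gm10680 rose 3.03-fold in DKO at 2M (log2 1.60 ± 0.35, adjusted P = 0.00018), 2.45-fold in L-Dnm1l-KO at 6M (1.29 ± 0.35, adjusted P = 0.011) and 3.14-fold in DKO at 6M (1.65 ± 0.35, adjusted P = 0.000219). Gm47528 rose by 1.62 ± 0.29, 0.96 ± 0.29 and 1.37 ± 0.29 in the same comparisons, and its call in L-Dnm1l-KO at 6M was lost under the wider adjustment. Both were below WT in TKO without passing the test, at -0.86 ± 0.35 and -0.54 ± 0.29 at 2M. The Apoa4 row, with a mean of 23.2, rose in DKO at 2M by 1.64 ± 0.41 and was not called in L-Dnm1l-KO at 6M (1.14 ± 0.40, adjusted P = 0.0929) or DKO at 6M (0.64 ± 0.41, adjusted P = 0.288). These rows share 1 locus and are not separate lines of evidence.

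Gm30505, opposite Ahsg, rose 1.76-fold in DKO at 2M (0.82 ± 0.13, adjusted P = 2.19e-08) and 1.36-fold in DKO at 6M (0.44 ± 0.13, adjusted P = 0.00894). The Ahsg row rose in DKO at 2M (1.12 ± 0.29) and fell in DKO at 6M (-0.79 ± 0.29), so at 6M the rows of this locus were called in opposite directions. On the class-centred scale Gm30505 stood at 0.15 at 6M and its call was lost. Some members of this role fell in both DKO at 2M and L-Dnm1l-KO at 6M. They were Gm10069 opposite Pzp (-0.44 ± 0.13 and -0.48 ± 0.13), Gm30097 opposite Fgg (-0.71 ± 0.24 and -0.76 ± 0.24) and Gm13449 opposite Hc, the complement C5 gene (-0.57 ± 0.18 and -0.58 ± 0.18). Under the wider adjustment both calls of Gm30097 and of Gm13449 and that of Gm10069 in L-Dnm1l-KO were lost, and that of Gm30097 in L-Dnm1l-KO also with centring on rows of mean 10 or more (-0.75). Gm47544, opposite Apoa5, was called in no comparison with WT, with values from -0.48 to 0.46, of which those in DKO at 2M and 6M differed from each other by 0.94 ± 0.27 (adjusted P = 0.0086).

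Opposite genes of xenobiotic, alcohol and metal handling lay 8 members, of which 3 rose in L-Dnm1l-KO at 2M and 3 in DKO at 6M, where 5.8% and 33.8% of other abundant rows rose. In TKO at 2M 1 rose, in DKO at 2M 1 rose and 1 fell, and in L-Dnm1l-KO at 6M 1 rose, where these rows gave 0.0%, 6.76% higher and 15.5% lower, and 3.86%. Gm10252, opposite the iron storage gene Ftl1, rose in L-Dnm1l-KO at 2M by 0.35 ± 0.12, in DKO at 2M by 0.55 ± 0.12, in L-Dnm1l-KO at 6M by 0.40 ± 0.12 and in DKO at 6M by 0.74 ± 0.12. It was not called in TKO, at -0.12 ± 0.12 and 0.20 ± 0.12. Gm15883, opposite Cyp2f2, rose in L-Dnm1l-KO at 2M by 0.58 ± 0.18 and in DKO at 6M by 0.50 ± 0.18. Both calls were lost under the wider adjustment and on the class-centred scale (0.45 and 0.20), and that at 6M also under centring on rows of mean 10 or more (0.42). Gm18807, a processed pseudogene opposite the thiopurine methyltransferase gene Tpmt, was the only member called in TKO at 2M, where it rose 1.66-fold (0.73 ± 0.18, adjusted P = 0.0253), and it rose in L-Dnm1l-KO at 2M by 0.84 ± 0.18. Its TKO call was lost under the wider adjustment, which left 0 members called in TKO at 2M. Gm45774, opposite the metallothionein gene Mt2, had large values with large errors, at 1.55 ± 0.63 in DKO at 2M and 1.52 ± 0.63 in DKO at 6M, and passed no test. Gm16559, Gm20528 and Gm20721, opposite Adh1, Ugt1a1 and Gnas, passed none either, with values between -0.22 and 0.29.

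Opposite genes of amino acid and one-carbon metabolism lay 12 members. In L-Dnm1l-KO at 2M 1 rose and 1 fell, in DKO at 2M 1 rose and 3 fell, in L-Dnm1l-KO at 6M 1 rose and in DKO at 6M 2 rose. Among other abundant rows 5.8% rose and 8.94% fell in L-Dnm1l-KO at 2M, 6.76% and 15.5% in DKO at 2M, and 3.86% and 33.8% rose in L-Dnm1l-KO and DKO at 6M. Gm15690, opposite serine dehydratase gene Sds, rose 3.32-fold in L-Dnm1l-KO at 6M (1.73 ± 0.25, adjusted P = 1.37e-08) and 2.45-fold in DKO at 6M (1.29 ± 0.25, adjusted P = 5.87e-05). The Sds row rose in L-Dnm1l-KO at 6M by 1.14 ± 0.35 and stood at -0.33 ± 0.37 in DKO at 6M. Gm15622, opposite the betaine-homocysteine methyltransferase gene Bhmt, rose at 2M in L-Dnm1l-KO (0.87 ± 0.27) and DKO (0.77 ± 0.27), and both calls were lost under the wider adjustment and on the class-centred scale (0.75 and 0.65). The members opposite Glo1, the glyoxalase 1 gene, both fell in DKO at 2M, Gm50244 by 1.59 ± 0.20 and Gm8373 by 0.62 ± 0.14, and stood at 0.23 ± 0.20 and 0.15 ± 0.14 in DKO at 6M. Gm50244 also fell in L-Dnm1l-KO at 2M (-0.63 ± 0.20), a call lost under the wider adjustment. Gm42413, opposite the dihydropteridine reductase gene Qdpr, fell in DKO at 2M (-0.47 ± 0.14), and Gm15540, opposite Kyat3, rose in DKO at 6M (0.70 ± 0.19), a call lost on the class-centred scale (0.40).

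Of the 14 members opposite genes of lipid and sterol metabolism and peroxisomes, 2 rose and 3 fell in DKO at 2M, 2 fell in TKO at 6M and 3 rose in DKO at 6M. Of the other abundant rows 6.76% rose and 15.5% fell in DKO at 2M, 0.725% fell in TKO at 6M and 33.8% rose in DKO at 6M. In TKO at 6M the fallers were Gm48342, opposite Hmgcs1, an enzyme gene of cholesterol synthesis (-1.17 ± 0.28, adjusted P = 0.0105), and Gm16537, opposite the glycerol-3-phosphate dehydrogenase gene Gpd1 (-0.67 ± 0.18, adjusted P = 0.0428). Both calls were lost under the wider adjustment, that of Gm16537 also on the class-centred scale (-0.65). The Hmgcs1 row stood at -1.73 ± 0.52 in that comparison, with an adjusted P of 0.0813. Gm45053, opposite the retinol saturase gene Retsat, fell in DKO at 2M by 1.32 ± 0.24 and rose in DKO at 6M by 0.68 ± 0.24. The 6M call was lost under the wider adjustment, with centring on rows of mean 10 or more (0.60) and on the class-centred scale (0.39). Gm45244, opposite the long-chain acyl-CoA synthetase gene Acsl1, rose 2.74-fold in DKO at 6M (1.46 ± 0.44) and stood at -1.21 ± 0.44 in DKO at 2M without passing the test. Gm11697, opposite the transporter gene Abca8b, rose 2.99-fold in DKO at 2M (1.58 ± 0.18, adjusted P = 1.34e-15) and stood at 0.20 ± 0.19 in DKO at 6M.

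Opposite genes of mitochondrial proteins, the organelle whose shape the deleted genes control, lay 10 members. In L-Dnm1l-KO 1 fell at each age, in DKO at 2M 1 rose and 3 fell, and in DKO at 6M 5 rose. Of the other abundant rows 8.94% and 1.93% fell in L-Dnm1l-KO at 2M and 6M, 6.76% rose and 15.5% fell in DKO at 2M, and 33.8% rose in DKO at 6M. Gm45507, opposite the mitophagy receptor gene Bnip3, fell in L-Dnm1l-KO at 2M (-0.62 ± 0.18) and in DKO at 2M (-0.98 ± 0.18, adjusted P = 2.35e-06), and stood at 0.47 ± 0.18 in DKO at 6M. Gm13068, opposite Slc25a33, which encodes a pyrimidine nucleotide carrier of the inner membrane, rose in DKO at 2M (1.04 ± 0.19) and at 6M (0.77 ± 0.19). Gm17168, opposite the carrier gene Slc25a23, fell in DKO at 2M (-0.41 ± 0.12) and in L-Dnm1l-KO at 6M (-0.50 ± 0.12). The others that rose in DKO at 6M were Gm26631 opposite the cytochrome c oxidase gene Cox5a (0.48 ± 0.16), Gm15884 opposite the prohibitin gene Phb2 (0.51 ± 0.15), Gm867 opposite Chchd10 (0.61 ± 0.18) and Gm16272 opposite the complex I gene Ndufb2 (0.46 ± 0.15). On the class-centred scale all 5 calls in DKO at 6M were lost, with values of 0.47 for Gm13068, 0.19 for Gm26631, 0.22 for Gm15884, 0.31 for Gm867 and 0.16 for Gm16272. Those of Gm26631 and Gm16272 were also lost under the wider adjustment and with centring on rows of mean 10 or more (0.40 and 0.38).

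Opposite genes of antigen presentation lay 2 members, and both rose in L-Dnm1l-KO at both ages, where 5.8% and 3.86% of other abundant rows rose. Gm11131, opposite the MHC class I gene H2-Q4, rose 2.45-fold at 2M (1.30 ± 0.17, adjusted P = 5.21e-11) and by 0.80 ± 0.17 at 6M. Gm15821, opposite the peptide transporter gene Tap2, rose by 0.76 ± 0.14 at 2M and 0.55 ± 0.14 at 6M. Both stood between -0.34 and 0.20 in TKO and DKO. The H2-Q4 row, with a mean of 12.5, stood at 0.43 ± 0.43 in L-Dnm1l-KO at 2M. Macrophage markers were scarce (1 of 8 with a mean of at least 10), none of them was called in L-Dnm1l-KO, and their median log2 fold change was 0.47 at 2M and 1.00 at 6M, against -0.36 and -0.44 in TKO. In DKO it was 0.67 at 2M and -0.68 at 6M. Their rows carry the same doubt over strand as the hepatocyte markers, and their part in these values was not tested.

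Of the 21 members opposite genes of signalling, transcription factors and stress response, 3 rose and 2 fell in L-Dnm1l-KO at 2M, and 8 rose and 1 fell in DKO at 6M. In DKO at 2M 3 rose and 1 fell, in L-Dnm1l-KO at 6M 2 rose and in TKO at 6M 1 fell. Of the other abundant rows 5.8% rose and 8.94% fell in L-Dnm1l-KO at 2M, 6.76% and 15.5% in DKO at 2M and 33.8% and 13% in DKO at 6M, 3.86% rose in L-Dnm1l-KO at 6M and 0.725% fell in TKO at 6M. Gm11175, opposite the AP-1 gene Jund, rose in L-Dnm1l-KO by 0.64 ± 0.18 at 2M and 0.67 ± 0.18 at 6M and in DKO by 0.72 ± 0.18 and 0.87 ± 0.18, and stood at 0.00 ± 0.18 and 0.01 ± 0.18 in TKO. Gm28513, opposite the G protein regulator gene Rgs16, fell to 0.303 of WT in L-Dnm1l-KO at 2M (-1.72 ± 0.49), where the Rgs16 row fell too (-2.63 ± 0.81). Gm10602, opposite the lipid phosphatase gene Inppl1, rose in L-Dnm1l-KO at 2M (1.26 ± 0.20) and DKO at 2M (0.87 ± 0.20). Gm28592, opposite Phlda1, fell in TKO at 6M (-1.54 ± 0.37) and was the only member lower in DKO at 6M (-1.17 ± 0.37), and the TKO call was lost under the wider adjustment. Gm26759, opposite Irf2bp2, rose in L-Dnm1l-KO at 6M (0.73 ± 0.18) and DKO at 6M (0.97 ± 0.18). Gm16277, opposite the GDNF receptor gene Gfra1, fell in L-Dnm1l-KO at 2M by 0.66 ± 0.17 and rose in DKO at 6M by 0.62 ± 0.17, and the latter call was lost on the class-centred scale (0.33). Gm45470, opposite the beta-3 adrenergic receptor gene Adrb3, fell in DKO at 2M by 1.11 ± 0.25.

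The 19 members opposite genes of RNA processing, translation and protein transport showed 1 higher in L-Dnm1l-KO at 2M, 5 higher and 1 lower in DKO at 2M and 9 higher in DKO at 6M, where all 19 lay above 0. Of the other abundant rows 5.8% were higher in L-Dnm1l-KO at 2M, 6.76% higher and 15.5% lower in DKO at 2M and 33.8% higher in DKO at 6M, where 323 of 414 lay above 0. In DKO at 6M the lowest of the 19 stood at 0.22, under the 0.30 that is taken as 0 on the class-centred scale. Gm20536, opposite Tgoln1, a gene of a trans-Golgi membrane protein, rose in DKO by 0.56 ± 0.15 at 2M and 0.62 ± 0.15 at 6M. The 6M call was lost on the class-centred scale (0.33). Of the 6 members opposite genes of membrane transport, 1 fell in L-Dnm1l-KO at each age, 1 rose and 1 fell in DKO at 2M and 1 rose in DKO at 6M. The shares of other abundant rows in these directions were 8.94% and 1.93%, 6.76% and 15.5%, and 33.8%. Gm12841, opposite the proton pump gene Atp6v0b, rose in DKO at 2M (0.57 ± 0.14) and 6M (0.64 ± 0.14), the latter call lost on the class-centred scale (0.35). Gm13872, opposite the glutamate transporter gene Slc1a2, fell in L-Dnm1l-KO at 2M (-1.07 ± 0.26, adjusted P = 0.00227) and 6M (-0.92 ± 0.26, a call lost under the wider adjustment), and Gm15635, opposite the organic anion transporter gene Slco2b1, fell in DKO at 2M (-0.90 ± 0.13, adjusted P = 8.34e-10). The Slc1a2 row fell in L-Dnm1l-KO at 2M by 1.89 ± 0.53.

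**Figure D3:**
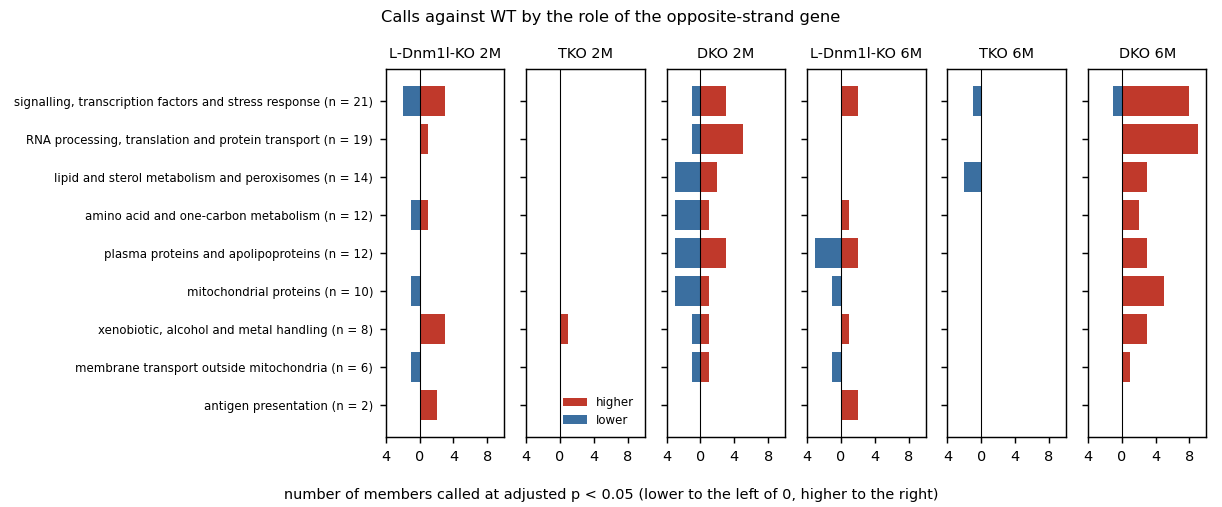
Number of members called at an adjusted P under 0.05, lower to the left of 0 and higher to the right, for each role of the opposite-strand gene (rows, with the number of members) in each comparison with WT (panels). In DKO at 6M the bars lie to the right apart from 1 member of the signalling role, and TKO has few bars at either age.

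Outside these roles were 70 members, of which 25 rose in DKO at 6M, a share close to the 33.9% of all members and the 33.8% of other abundant rows. In L-Dnm1l-KO 5 rose and 1 fell at 2M, and 3 rose and 3 fell at 6M. In DKO at 2M 9 rose and 5 fell, and in TKO at 6M 1 rose and 1 fell. Of the other abundant rows 5.8% rose and 8.94% fell in L-Dnm1l-KO at 2M, and 3.86% and 1.93% at 6M. In DKO at 2M 6.76% rose and 15.5% fell, and in TKO at 6M 0.483% and 0.725%. Gm15962, opposite Keg1, fell to 0.224 of WT in DKO at 2M (-2.16 ± 0.24, adjusted P = 4.88e-16) and fell in L-Dnm1l-KO at 6M by 0.91 ± 0.24, and the Keg1 row fell in DKO at 2M by 2.1 ± 0.60. Gm17300, which shares 19 exon bases with Rcc1, rose in TKO at 6M (2.80-fold, 1.49 ± 0.26, adjusted P = 8.57e-06) and in DKO at 6M (3.24-fold, 1.70 ± 0.26, adjusted P = 9.58e-08), and was the only member higher in TKO at 6M. Gm44570, opposite the synaptic scaffold gene Homer2, fell in L-Dnm1l-KO at 2M (-0.53 ± 0.18) and 6M (-1.08 ± 0.18) and in DKO at 2M (-0.52 ± 0.17). Its 2M calls were lost under the wider adjustment, and that in L-Dnm1l-KO also with centring on rows of mean 10 or more (-0.51). Gm20412, opposite the transglutaminase gene Tgm2, rose at 2M in L-Dnm1l-KO (0.61 ± 0.16) and DKO (0.97 ± 0.15) and fell in TKO at 6M (-0.65 ± 0.16, a call lost under the wider adjustment). Gm26716, opposite the syndecan gene Sdc3, rose at 2M in L-Dnm1l-KO (1.00 ± 0.23) and DKO (0.69 ± 0.23), and the DKO call was lost under the wider adjustment and on the class-centred scale (0.58). Gm48529, opposite the smooth muscle gene Tagln, rose in DKO at 2M (1.20 ± 0.41) and 6M (1.36 ± 0.42), but both calls were lost on the class-centred scale (1.09 and 1.06) and that at 2M also under the wider adjustment. Gm45767, opposite the plasmolipin gene Pllp, rose in DKO at 6M (1.01 ± 0.17). Gm48702, opposite Ttc36, fell in DKO at 2M by 0.68 ± 0.15.

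The rows of partners followed their members in part. Over the 101 pairs with a partner mean of at least 10, Pearson's r between the log2 fold changes of member and partner was 0.53, 0.52 and 0.67 in L-Dnm1l-KO, TKO and DKO at 2M and 0.67, 0.59 and 0.53 at 6M. These are descriptions across genes, which share libraries and normalization. The gap between the median of these members and that of their partners varied. At 2M the medians were 0.08 and -0.43 in L-Dnm1l-KO, -0.05 and 0.06 in TKO and 0.05 and -0.27 in DKO. At 6M they were 0.04 and -0.09 in L-Dnm1l-KO, -0.04 and -0.04 in TKO and 0.30 and -0.65 in DKO. Over all 168 pairs in DKO at 6M, 58 members were called higher and 1 lower, while 1 partner was called higher and 44 lower. Both rows of a pair were called in 10 pairs there, in the same direction in 2 and in opposite directions in 8. On the class-centred scale 13 of all 174 members were higher in DKO at 6M and 11 lower, so these directions depend on the scale. In DKO at 2M both rows were called in 5 pairs, all in the same direction.

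**Figure D4:**
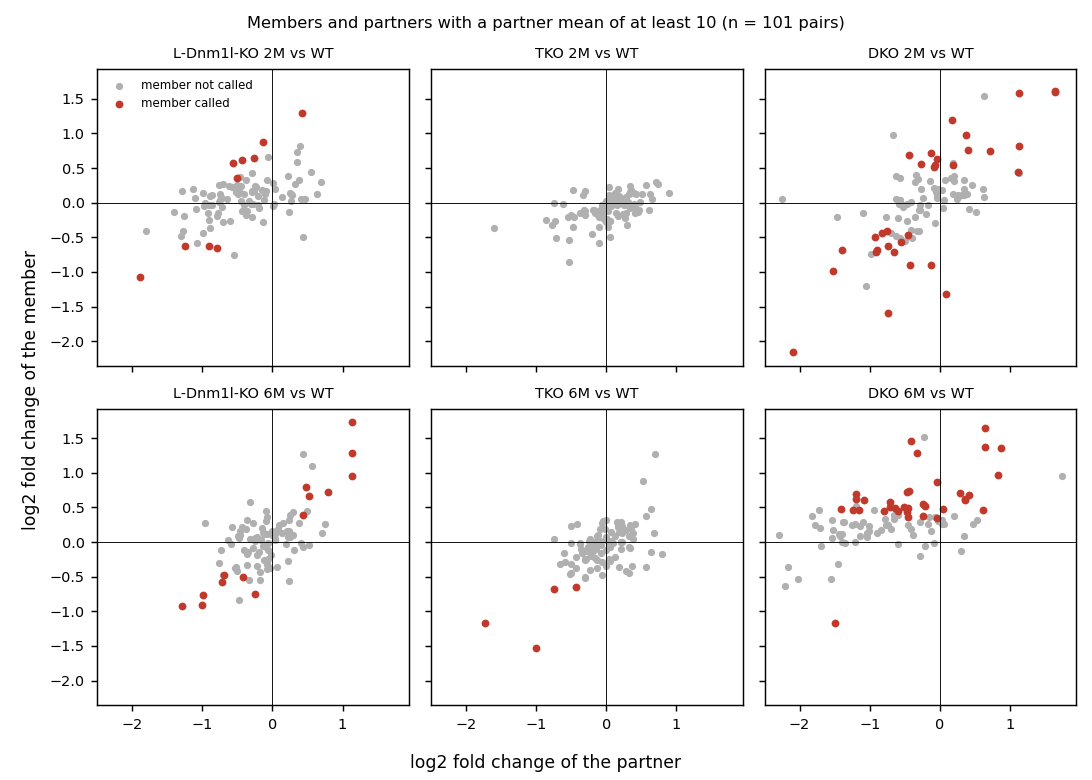
Log2 fold change of the member (vertical axis) against that of its partner (horizontal axis) for the 101 pairs with a partner mean of at least 10, 1 panel per comparison with WT. Red points mark members called at an adjusted P under 0.05. In DKO at 6M the cloud sits above 0 on the member axis (median 0.30) and left of 0 on the partner axis (median -0.65).

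Whether a response changed with age was tested as the difference between the log2 fold changes at 6M and 2M, which share no libraries, with adjustment over the 4423 rows with a mean of at least 10. In L-Dnm1l-KO 5 members differed, all lower at 6M, with a background of 1.29%. These were 2.87% of the members, and 3.14% of the 414 other rows with a mean of at least 200 differed. They were Gm44317, Gm43808, Gm18807, Gm26533 and Gm16090. The median of the hepatocyte markers in L-Dnm1l-KO was -1.16 at 2M and -0.03 at 6M, and its part in these differences was not tested. In TKO 0 members differed (background 0.0%), and 16 did at an unadjusted P under 0.05. In DKO 37 members differed (21.3% of the members, background 11.1%), 33 of them higher at 6M and 4 lower, and 25.1% of the 414 other rows with a mean of at least 200 also differed. Gm50244 opposite Glo1 differed by 1.82 ± 0.29 (adjusted P = 8.42e-08), Gm45053 opposite Retsat by 2.01 ± 0.34 (adjusted P = 1.23e-06) and Gm45507 opposite Bnip3 by 1.45 ± 0.25 (adjusted P = 1.75e-06). Gm11697 opposite Abca8b was the member with the strongest difference the other way, at -1.38 ± 0.26 (adjusted P = 2.12e-05). With each age centred on the median of rows with a mean of at least 10, 24 were higher and 5 lower.

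**Figure D5:**
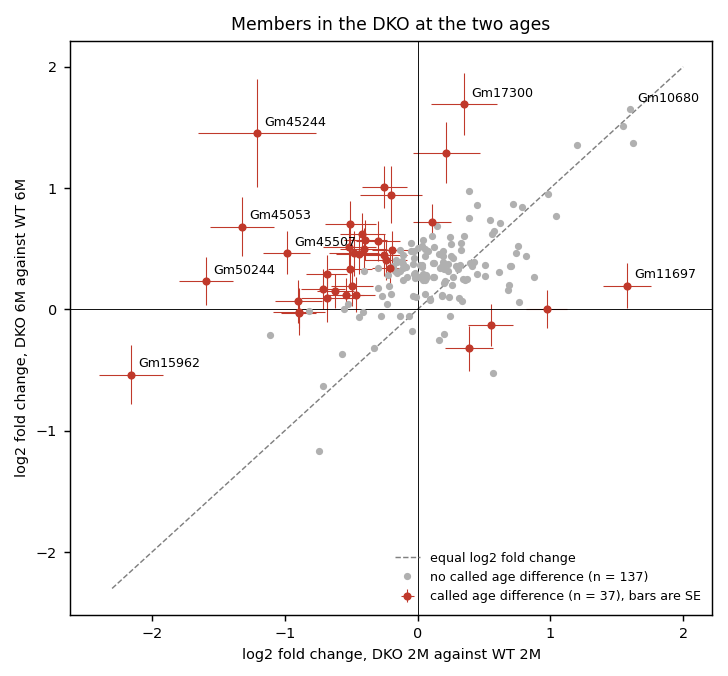
Log2 fold change of each of the 174 members in DKO at 6M (vertical axis) against that at 2M (horizontal axis). The 37 red points, with standard errors as bars, differed between the ages, and 33 of them lie above the dashed line of equal change. Gm10680 opposite Apoa4 lies near the line at 1.60 and 1.65.

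Differences between genotypes of the same age were tested in the same way. At 2M, 7 members differed between L-Dnm1l-KO and TKO (background 2.37%), 11 between L-Dnm1l-KO and DKO (background 1.81%) and 17 between DKO and TKO (background 4.95%). At 6M these counts were 1 (0.271%), 6 (0.904%) and 3 (0.113%). With each comparison centred on the median of rows of mean 10 or more, the 6 members (1 higher and 5 lower in L-Dnm1l-KO) became 2, 1 in each direction. As shares of the members the counts were 4.02%, 6.32% and 9.77% at 2M, where the 414 other rows with a mean of at least 200 gave 5.07%, 4.11% and 9.18%, and 0.575%, 3.45% and 1.72% at 6M, where those rows gave 0.483%, 2.17% and 0.242%. Gm11131 opposite H2-Q4 was higher in L-Dnm1l-KO than in TKO by 1.62 ± 0.25 at 2M (adjusted P = 7.81e-08) and 1.01 ± 0.25 at 6M (adjusted P = 0.0239), and higher than in DKO by 1.10 ± 0.25 at 2M (adjusted P = 0.00128) and by 1.00 ± 0.25 at 6M (adjusted P = 0.018). Gm15821 opposite Tap2 was higher in L-Dnm1l-KO than in TKO by 1.09 ± 0.21 and than in DKO by 1.03 ± 0.20 at 2M. Gm10680 and Gm47528, both opposite Apoa4, were higher in DKO than in TKO at 2M by 2.46 ± 0.49 and 2.16 ± 0.41, and at 6M by 2.16 ± 0.49 and 1.88 ± 0.41. For Gm15962 opposite Keg1 at 2M, DKO minus TKO was -2.05 ± 0.34 and L-Dnm1l-KO minus DKO was 1.68 ± 0.34. For Gm44570 opposite Homer2 at 6M, L-Dnm1l-KO minus DKO was -1.12 ± 0.25 (adjusted P = 0.00492). The WT error counts on both sides of these differences, so the standard errors are too wide, and with that error taken out the counts rose to 29, 34 and 54 at 2M (16.7%, 19.5% and 31% of the members) and 13, 51 and 72 at 6M (7.47%, 29.3% and 41.4%). The other abundant rows rose likewise, to 21%, 14% and 24.6% at 2M and 3.86%, 30.4% and 41.3% at 6M.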

How the data were processed

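Liver RNA was poly(A)-selected into strand-specific libraries and sequenced as single 75-base reads. The authors mapped reads with HISAT2 2.1.0.13 to GRCm38, counted them with HTSeq and fitted DESeq2. The strand setting of the counting step is not given in the sources used here. The results table of that fit was analysed. Its signal column, deposited by the authors, is the mean normalized count over all libraries. The deposited log2 columns are fold changes against WT with their standard errors, the score deposited is the Wald statistic, and the p-values deposited are raw and Benjamini-Hochberg adjusted. These columns hold the authors' own comparisons and were taken as measurements, since values of single libraries were not analysed and library depth is unknown.

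Members and lists, the role lists among them, were chosen with earlier results of these data known. Members named are the 10 highest, those called with a log2 fold change past 1, the 3 with the largest Wald statistics in each direction per comparison and the 3 with the largest differences between ages or genotypes, and other members named were picked after their values were seen. Partners came from GENCODE M21. Differences between comparisons were tested with a two-sided normal test, Benjamini-Hochberg adjusted over rows with a mean of at least 10. The step was run on simulated data for the age differences only, with independent normal errors drawn from the deposited standard errors. It therefore cannot check those errors, or the genotype differences, which share WT libraries. Alternatives were fold thresholds, adjustment sets, member minimums of 100 and 500, the left-out genes counted in, and centring. Python 3.11.15, numpy 2.4.6, pandas 2.3.3 and scipy 1.17.1 were used.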

Additional observations from a re-analysis of the deposited data

Results flagged for a closer look

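The members below are listed because their log2 fold change against WT differed between 6M and 2M in the test of the difference itself, and values are 6M minus 2M. In L-Dnm1l-KO the members were Gm44317 (-0.76), Gm43808 (-0.97), Gm18807 (-0.96), Gm26533 (-0.61) and Gm16090 (-0.88).

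In DKO the members higher at 6M, in order of the strength of the difference, were Gm50244 (1.82), Gm45053 (2.01), Gm45507 (1.45), Gm45767 (1.26), Gm15635 (0.87), Gm15962 (1.62), Gm48702 (0.98), Gm15540 (1.21), Gm16277 (1.04), Gm45244 (2.66), Gm20650 (0.96), Gm8373 (0.77), Gm15788 (0.96), Gm16143 (0.88), Gm17300 (1.35), Gm28959 (0.90) and Gm17178 (0.86). Further members higher at 6M were Gm16984 (1.03), Gm20463 (0.84), Gm15883 (0.90), Gm47544 (0.94), Gm45236 (1.14), Gm47162 (0.66), Gm45890 (0.87), Gm26873 (0.68), Gm37335 (0.61), Gm15690 (1.08), Gm44775 (0.69), Gm42413 (0.59), Gm44280 (0.70), Gm28364 (0.55), Gm43118 (0.65) and Gm45724 (0.77). The members lower at 6M were Gm11697 (-1.38), Gm20412 (-0.97), Gm15956 (-0.68) and Gm16090 (-0.71). Gm16090 differed in both genotypes. Hepatocyte markers in L-Dnm1l-KO stood at a median of -1.16 at the earlier age and -0.03 at the later. In DKO they were lower than in WT at both ages, with medians of -1.09 at 2M and -1.29 at 6M. The part of the markers in the differences of either genotype was not tested, and with the strand setting unknown it is not settled that these rows measure the RNA of the marker genes themselves.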

How the results depend on the processing

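Limits: no value of a single library was analysed, so leaving out libraries and other count tools were not run, and the depth behind each mean is unknown. No paired analysis was possible because the table carries no values by replicate. Counts are of members called, unless the text says otherwise, and comparisons are given in the order L-Dnm1l-KO, TKO and DKO at 2M, then at 6M. The cause of each change in a count was not tested beyond what the setting does.

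Against WT the counts were 21, 1, 47, 19, 5 and 60. With a log2 fold change past 1 they were 5, 0, 9, 3, 3 and 8, and past 1.5 they were 1, 0, 5, 1, 1 and 2. With every gene that has a P value in the adjustment, the TKO count at 2M became 0, that of L-Dnm1l-KO at 6M 10 and that of TKO at 6M 1. With a member minimum of 100, L-Dnm1l-KO and DKO at 2M gave 34 and 73, and DKO at 6M 95. With a minimum of 500, the counts of L-Dnm1l-KO, TKO and DKO at 2M were 8, 0 and 24, the last of them 9 higher and 15 lower against 26 and 21 as reported, and those of L-Dnm1l-KO and DKO at 6M 10 and 28. Centring on the genes of mean 10 or more brought DKO at 6M to 37, and centring on rows with an opposite-strand coding gene, an alternative chosen after seeing the data, brought it to 24, of which 14 had also been called before centring.

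Age differences past 1 numbered 0 in L-Dnm1l-KO and 13 in DKO. With a member minimum of 500 these counts were 1 and 24, and with 100 L-Dnm1l-KO gave 8. For L-Dnm1l-KO against TKO, a minimum of 500 gave 2 at 2M and 0 at 6M, adjustment over genes of at least 100 gave 3 at 6M, and taking out the shared WT error gave 29 and 13. For L-Dnm1l-KO against DKO, a difference past 1 gave 6 and 2, a minimum of 500 gave 5 and 2, taking out the WT error gave 34 and 51, adjustment over genes of at least 100 gave 11 at 6M, and centring, chosen after seeing the data, gave 2 at 6M. For DKO against TKO, adjustment over genes of at least 100 gave 26 and 9, a difference past 1 gave 7 at 2M, minimums of 100 and 500 gave 26 and 9 at 2M, and taking out the WT error gave 54 and 72.

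Of 153 calls of members, 102 held when every gene with a P value entered the adjustment, 153 when those of mean 10 or more did, 127 with the first centring and 88 with the second, and none changed sign. Calls of members with values above that were lost are given beside those values.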
